A study of Mus musculus with 10 samples.

Results

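The embryos described here are replicates 5 and 6 of each genotype, 4 embryos in all (2 Rreb1+/+ and 2 Rreb1-/-), set against replicates 2 to 4, 6 embryos in all (3 Rreb1+/+ and 3 Rreb1-/-). Together they are the 10 embryos of the series. The sets were chosen on the first principal component of these same expression values, so that every gene of the contrast took part in the choice. All differences between the sets are therefore given as descriptions, with their spread between embryos and with no test. Genotype entered each comparison as a covariate.

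Rreb1 encodes a zinc finger transcription factor. The embryos came from crosses between Rreb1+/- mice and were taken at embryonic day (E) 7.5. The label gives the strain as CD1, and the study describes a mixed background and combined mutant lines that differ in the length of a CRISPR-Cas9 deletion, which takes out most coding bases of an exon. No embryo was treated. The parietal endoderm, the outer membrane that lines the implantation site, was removed from every embryo for genotyping, and the rest of each embryo gave its own polyadenylated RNA library. The labels give no litter, collection day, sequencing batch or morphological stage for any embryo. Replicate number, litter, batch and stage therefore cannot be told apart.

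At this age the epiblast, a sheet of pluripotent cells, is turning into the germ layers. Cells leave it through the primitive streak, first as extraembryonic and cardiac mesoderm and later as the paraxial mesoderm that forms somites, while anterior epiblast becomes neurectoderm. Nodal signalling, its co-receptor Tdgf1 and its inhibitors Lefty1 and Lefty2 act early in this sequence. The first red blood cells and vessels form in the yolk sac, and Hox genes come on from the 3' to the 5' end of each cluster. Visceral endoderm and extraembryonic ectoderm, which surround the embryo proper, were part of each sample.

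Depth was similar in the sets, at 31944522 to 35571775 counted reads per embryo in replicates 5 and 6 and 31467767 to 35786876 in replicates 2 to 4. Reads of mitochondrially encoded genes made up 2.22% to 2.75% of the total in replicates 5 and 6 and 2.03% to 3.08% in replicates 2 to 4. Values are normalized read counts, that is, reads per gene divided by a size factor for each embryo. The markers that the label whole embryo calls for were present in all 10 embryos, with the lowest value at 3060 for Pou5f1 (epiblast), 1620 for T (streak), 9310 for Ttr (visceral endoderm) and 1068 for Elf5 (extraembryonic ectoderm). Xist was at 45657 to 68009 in the 5 Rreb1+/+ embryos and at 58036 in Rreb1-/- replicate 2, while Rreb1-/- replicates 3 to 6 had 39.3 to 61.3. Y-linked genes, summed, showed the opposite pattern, with 5849 to 9171 in those 4 embryos and at most 3.82 in the other 6. Rreb1 itself, summed over all its exons, was at 2534, 2741 and 2365 in Rreb1+/+ replicates 2 to 4 and 2924 and 2656 in replicates 5 and 6. It was at 4657, 5715 and 3988 in Rreb1-/- replicates 2 to 4 and 5052 and 5638 in replicates 5 and 6, so the mutant embryos lay above all wild-type embryos in both sets. A sum over exons does not measure the deleted stretch.

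The first principal component held 37.0% of the variance of log2 expression. Its scores were 48.2 and 44.5 for Rreb1+/+ replicates 5 and 6 and 27.8 and 33.9 for Rreb1-/- replicates 5 and 6. Rreb1+/+ replicates 2 to 4 had scores of -6.07, -3.64 and -6.77, and Rreb1-/- replicates 2 to 4 had scores of -46.6, -47.5 and -43.7. The embryos nearest the border between the sets were thus Rreb1-/- replicate 5 at 27.8 and Rreb1+/+ replicate 3 at -3.64. Within each set the wild-type embryos had the higher scores. The second component, with 17.7% of the variance, separated the genotypes. By Xist and Y-linked genes, sex went with genotype in all embryos but Rreb1-/- replicate 2. Inside replicates 5 and 6, sex and genotype cannot be told apart.

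**Figure D1:**
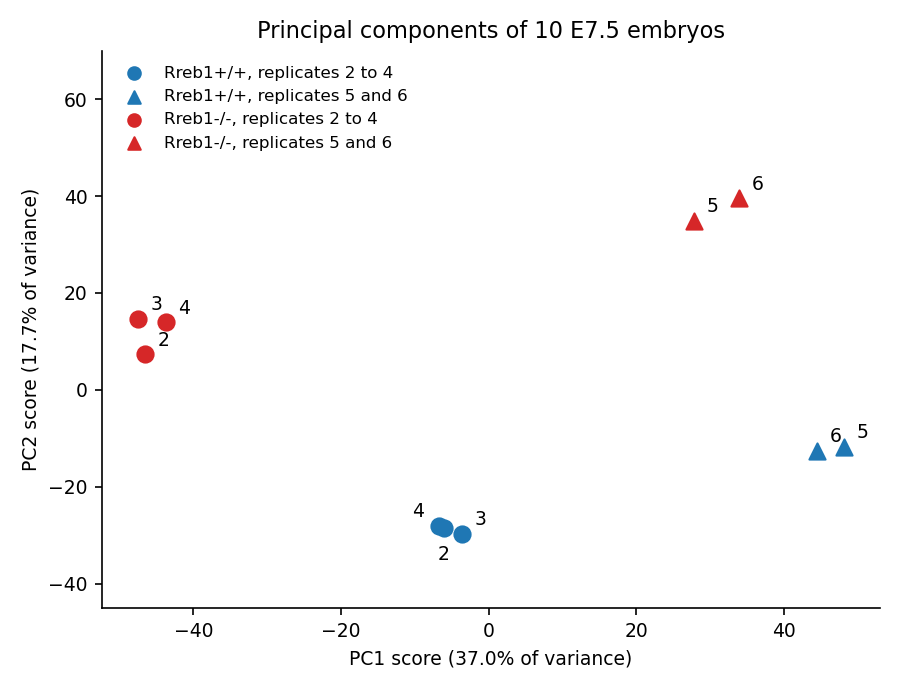
Scores of the 10 embryos on the first principal component (x axis, 37.0% of variance) and the second (y axis, 17.7%), over genes that passed the filter. Blue is Rreb1+/+, red is Rreb1-/-, circles are replicates 2 to 4, triangles are replicates 5 and 6, and the digits are replicate numbers. The triangles lie between 27.8 and 48.2 on the x axis and the circles between -47.5 and -3.64.

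Of the 20974 genes in the table, 15603 had a mean of at least 15 normalized read counts in at least 1 genotype and were compared. A gene low in replicates 2 to 4 could pass only if it was high in replicates 5 and 6, and the reverse. A gene was counted as higher when its log2 difference (replicates 5 and 6 minus replicates 2 to 4, adjusted for genotype, on the log2(value + 1) scale) was at least 1 and when, within each genotype, both embryos of replicates 5 and 6 lay above all 3 of replicates 2 to 4. It was counted as lower by the mirror rule. By this rule 471 genes were higher in replicates 5 and 6 (3.02% of those compared) and 170 were lower (1.09%). These percentages are the background for every list count that follows, and since the rule that formed the sets used these values, nothing is read from a list lying above or below them. The median difference over all 15603 genes was -0.0012.

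The lists with the most genes higher in replicates 5 and 6 were those of Hox genes, endothelium, cardiac mesoderm and primitive blood. The list with the most genes lower was that of epiblast and pluripotency. Lists of proliferation, glycolysis, ribosomal proteins, visceral endoderm plasma proteins, and visceral endoderm lineage and uptake had no gene counted in either direction. In whole embryos, fewer cells of a type and less RNA per cell cannot be told apart. The lists share some genes, and each is described in turn.

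**Figure D2:**
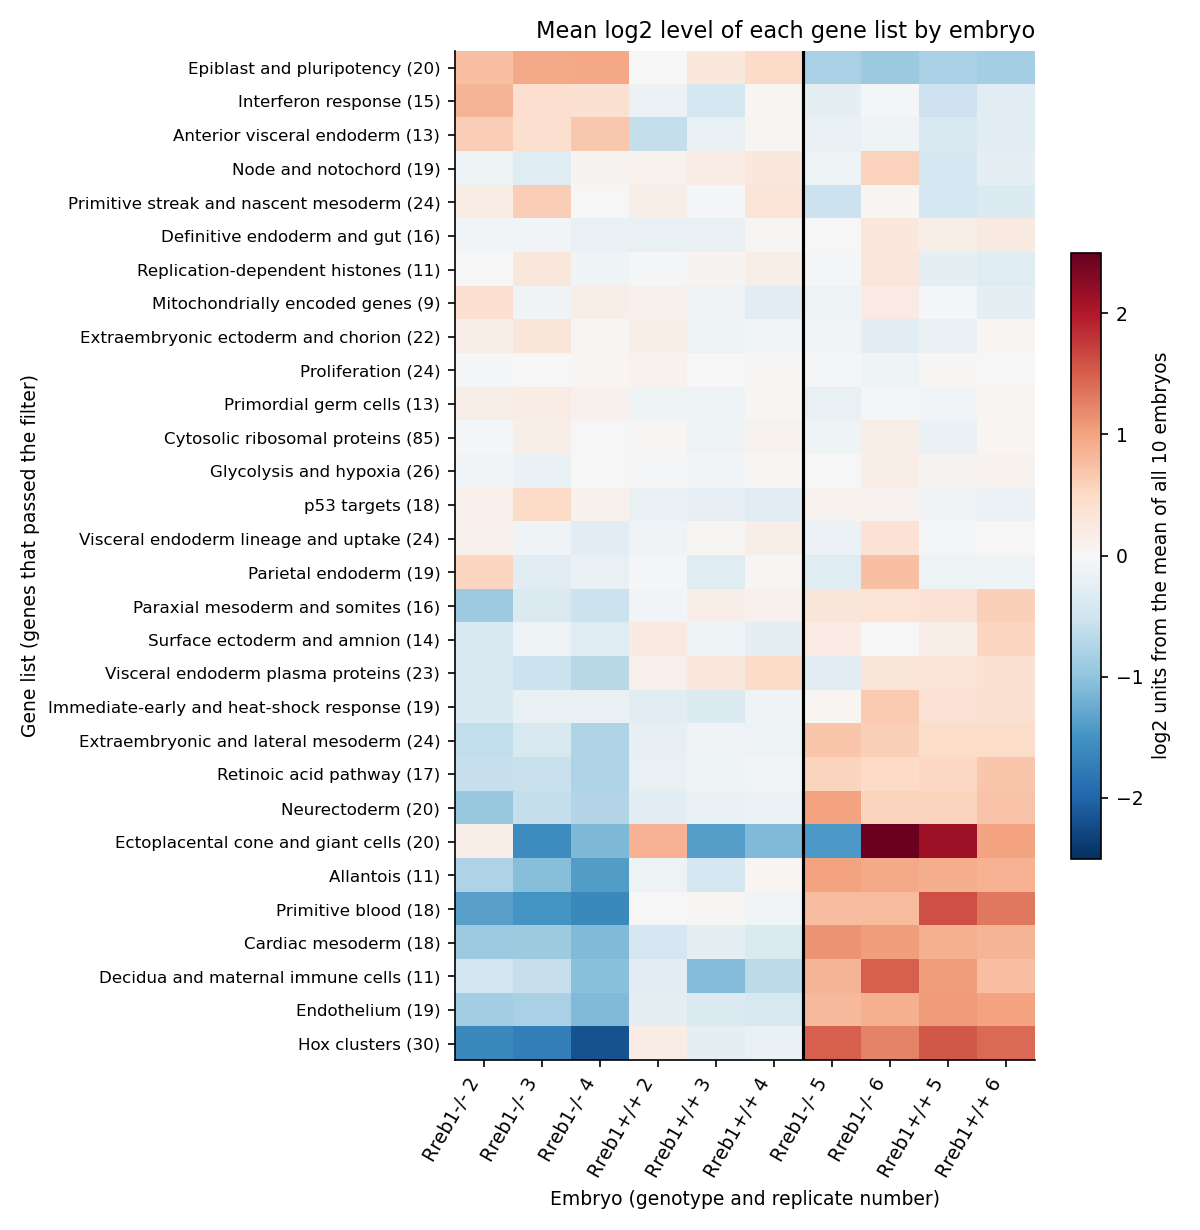
Mean log2 expression of 30 gene lists (rows, with the number of genes that passed the filter in parentheses) in each embryo (columns), as the difference from the mean over all 10 embryos. The colour bar gives log2 units, the black line separates replicates 2 to 4 (left) from replicates 5 and 6 (right), and rows are ordered by their median set difference. Hox, endothelium, cardiac and blood rows are red in all 4 embryos right of the line, the epiblast row is blue there, and the ectoplacental cone row varies between single embryos.

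Of the epiblast list, the counted genes were all lower in replicates 5 and 6. Of 20 listed genes, all of which passed the filter, 10 were counted as lower and 0 as higher, and the median log2 difference was -0.97. Lefty2, a secreted inhibitor of Nodal, was at 236, 388 and 928 in Rreb1+/+ replicates 2 to 4 and 4.80 and 3.77 in replicates 5 and 6. Mutant embryos had 1227, 2178 and 1619 in replicates 2 to 4 and 1.86 and 13.6 in replicates 5 and 6. The sets did not overlap, and the log2 difference of -7.19 ± 0.63 (SE) had the largest size of all genes counted as lower.

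Tdgf1 (Cripto), the Nodal co-receptor, was at 129.5, 271 and 376 in Rreb1+/+ replicates 2 to 4 and 14.4 and 8.48 in replicates 5 and 6. Its values in Rreb1-/- embryos were 3333, 1955 and 2316 against 13 and 10.4. In replicates 2 to 4 every mutant embryo lay above every wild-type embryo, and in replicates 5 and 6 all 4 embryos were between 8.48 and 14.4. The log2 difference was -5.95 ± 0.71 (SE). Lefty1, the close relative of Lefty2, ranged from 4.80 to 47.8 in replicates 2 to 4 and from 0 to 1.04 in replicates 5 and 6, with a difference of -3.54 ± 0.49 (SE). Lefty1 and Lefty2 have similar sequences, so reads could be divided between them uncertainly.

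Fgf5, a marker of primed epiblast, was at 142, 165 and 281 in Rreb1+/+ replicates 2 to 4 and 93.2 and 88.5 in replicates 5 and 6, and at 845, 503 and 900.5 against 88.3 and 52.2 in Rreb1-/-. Its difference was -1.04 within Rreb1+/+ and -3.40 within Rreb1-/- embryos. The pluripotency factor Nanog was at 619, 791 and 763 against 254 and 318 in Rreb1+/+ and 989.7, 902 and 1077 against 318 and 243 in Rreb1-/- embryos, a difference of -1.58 ± 0.15 (SE). Pou5f1 (Oct4) stayed high in all embryos, with 6806 to 11366 in replicates 2 to 4 and 3060 to 4150 in replicates 5 and 6, and a difference of -1.32 ± 0.19 (SE). The other counted members were Slc7a3 (-1.26), the DNA methyltransferase Dnmt3b (-1.23), Dppa4 (-1.08), Nodal itself (-1.07) and the kinase Pim2 (-1.04).

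The remaining 10 epiblast genes were not counted. Sox2, which neural progenitors also express, was at 1029, 1007 and 1229 in Rreb1+/+ replicates 2 to 4 and 1033 and 1011 in replicates 5 and 6, with a difference of -0.26 ± 0.12 (SE). Otx2 (-0.43), Utf1 (-0.57) and Esrp1 (-0.17) also lay well inside 2-fold. Foxd3, a pluripotency and neural crest factor outside the list, was among the 10 genes with the largest negative differences, at 2.88 to 48.8 in replicates 2 to 4 and 0 to 5.22 in replicates 5 and 6 (-2.89 ± 0.46 (SE)).

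Genes of the primitive streak went in both directions. Of 24 that passed the filter, 7 were counted as lower and 2 as higher, with a median difference of -0.25. Most of the lower ones are known from the early streak and the first mesoderm to leave it. Mesp1, the transcription factor of nascent cardiac and head mesoderm, was at 166, 293 and 367 in Rreb1+/+ replicates 2 to 4 and 42.3 and 73.5 in replicates 5 and 6. Its Rreb1-/- values were 551, 1044 and 509 in replicates 2 to 4 and 51.1 and 100.1 in replicates 5 and 6, and all 4 later-numbered embryos lay below the other 6 (-2.70 ± 0.40 (SE)). Mesp2, its neighbour and close relative, had a difference of -2.5 ± 0.62 (SE). Within replicates 5 and 6 it was at 7.68 to 10.2 in 3 embryos and at 69.9 in Rreb1-/- replicate 6, which lay inside the range of Rreb1+/+ replicates 2 to 4.

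Eomes, a T-box factor needed for mesoderm and endoderm to form, was at 1560.0, 1623 and 1928 against 720.2 and 758 in Rreb1+/+ and at 5858, 4821 and 4549 against 747 and 642 in Rreb1-/- embryos. The 4 embryos of replicates 5 and 6 had nearly the same level in both genotypes, whereas in replicates 2 to 4 the mutants lay higher. Its difference was -2.03 ± 0.33 (SE). The homeobox gene Mixl1 (-1.75 ± 0.38 (SE)) and the ligand Wnt3 (-1.85) were also lower. T (Brachyury), the marker of the whole streak, of the notochord and later of the tail bud, was at 6294, 7258 and 9627 against 1941 and 1881 in Rreb1+/+ and 4737, 6081 and 6693 against 1619.8 and 2619 in Rreb1-/- embryos (-1.74 ± 0.21 (SE)).

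Streak genes that are known to stay on in the later streak and tail bud did not share a direction. Besides T, Evx1 was lower without overlap but under 2-fold, at 656, 530.1 and 697 against 377 and 417 in Rreb1+/+ and 758, 1160 and 594 against 458 and 556 in Rreb1-/- embryos (-0.66 ± 0.19 (SE)). Cdx1 was higher, at 601, 243 and 203 in Rreb1+/+ replicates 2 to 4 and 2633 and 3100.2 in replicates 5 and 6, and at 59.3, 99.8 and 54.2 against 2498 and 2537 in Rreb1-/- embryos. Its difference of 4.19 ± 0.50 (SE) stood beside 1.61 for Cdx4 and 0.54 for Cdx2, of which only Cdx4 was counted. Fgf8 (0.19), Wnt3a (0.34), Axin2 (0.03) and Tbx6 (0.18 ± 0.33 (SE)) were within 2-fold and not counted. Msgn1, a factor of presomitic mesoderm, had a difference of 1.72 and was not counted. It overlapped in Rreb1+/+ embryos (0.33) but was apart in Rreb1-/- embryos, at 31.8, 147 and 13.8 against 272 and 476 (3.12).

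**Figure D3:**
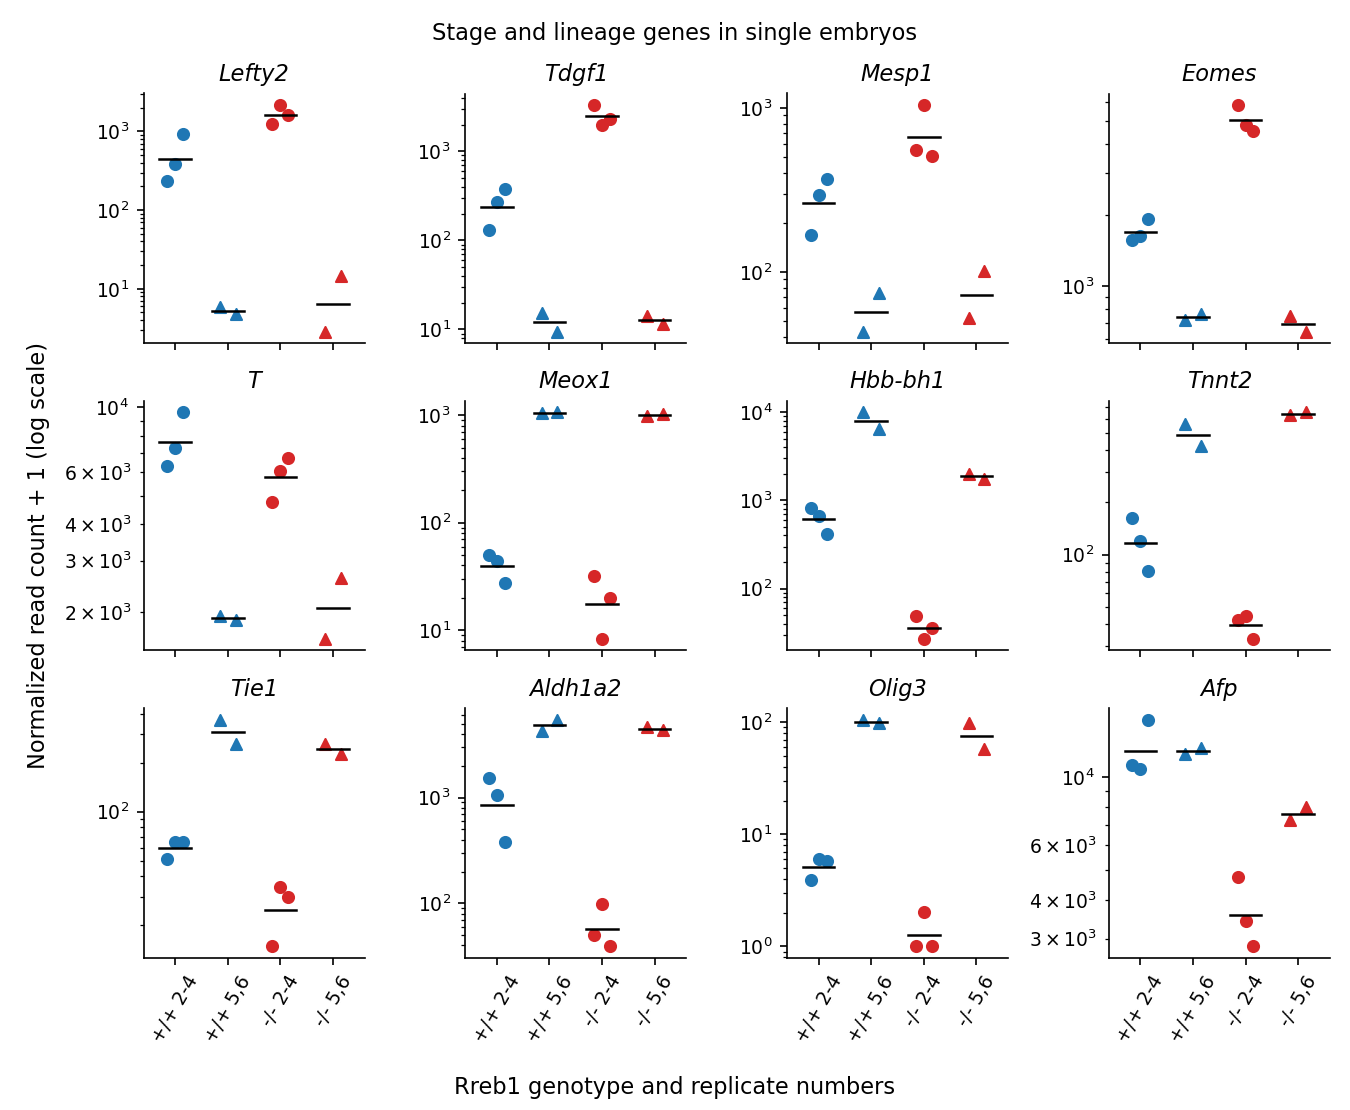
Normalized read counts plus 1 (log scale, a separate range in each panel) of 12 genes in single embryos, by Rreb1 genotype and replicate numbers (x axis). Points are embryos, circles are replicates 2 to 4, triangles are replicates 5 and 6, and bars are geometric means. Lefty2, Tdgf1, Mesp1, Eomes and T are lower in the triangles of both genotypes, Meox1, Hbb-bh1, Tnnt2, Tie1, Aldh1a2 and Olig3 are higher, and Afp overlaps between the sets in Rreb1+/+ embryos.

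Somite genes were split too. Of 16 paraxial mesoderm genes that passed the filter, 5 were counted as higher and 2 as lower, with a median of 0.10. Meox1, a homeobox gene of somites, was at 48.9, 43.2 and 26.7 in Rreb1+/+ replicates 2 to 4 and 1049 and 1064 in replicates 5 and 6. Its mutant values were 30.7, 7.27 and 19 and 992 and 1026. All 4 embryos of replicates 5 and 6 were between 992 and 1064, and the ratio of means was 26.7 within Rreb1+/+ and 53 within Rreb1-/- embryos. Pax3, of dorsal somite and neural tube, had a difference of 1.94 ± 0.35 (SE), Tcf15, of formed somites, 1.64, and Hes7, of the segmentation clock, 1.31.

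Other segmentation genes gave no such pattern. Ripply1 (-0.16), Ripply2 (-0.12), Lfng (-0.38) and Dll1 (-0.14) were not counted, and Dll3, a Notch ligand of presomitic mesoderm, was counted as lower (-1.12). Cer1, a secreted inhibitor of Nodal, BMP and Wnt made by anterior endoderm and later by nascent somites, was at 1311, 1457 and 1821 against 432 and 447 in Rreb1+/+ and 3146, 2687 and 2714 against 378 and 429.8 in Rreb1-/- embryos. Its difference was -2.30 ± 0.22 (SE), and all 4 embryos of replicates 5 and 6 lay below the other 6.

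In the retinoic acid pathway the counted genes were higher in replicates 5 and 6 and the others were within 2-fold. Retinoic acid is made from vitamin A in forming somites and lateral mesoderm and patterns the trunk. Of 17 genes that passed the filter 7 were counted as higher and 0 as lower, with a median of 0.61, which was 0.32 within Rreb1+/+ and 0.95 within Rreb1-/- embryos. Aldh1a2, the enzyme that makes retinoic acid in the embryo, was at 1532, 1056 and 380.0 in Rreb1+/+ replicates 2 to 4 and 4281 and 5442 in replicates 5 and 6. Its Rreb1-/- values were 48.7, 96.6 and 38.2 and 4624 and 4322. The 4 embryos of replicates 5 and 6 shared a level, whereas in replicates 2 to 4 the mutants lay below all wild-type embryos (4.39 ± 0.84 (SE)).

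The receptor Rarb, a known target of retinoic acid, was at 95.0, 76.3 and 61.1 against 411 and 357 in Rreb1+/+ and 57.2, 49.9 and 60.5 against 444 and 423 in Rreb1-/- embryos. Its difference of 2.63 ± 0.17 (SE) was 2.31 within Rreb1+/+ and 2.94 within Rreb1-/- embryos. Dhrs3, which lowers retinaldehyde (1.62 ± 0.26 (SE)), the binding protein Crabp1 (1.59 ± 0.21 (SE)), the degrading enzyme Cyp26c1 (1.52), Crabp2 (1.25) and the retinol carrier receptor Stra6 (1.09 ± 0.18 (SE)) were higher as well. Cyp26a1, the degrading enzyme of the streak and tail, was not counted. It was at 1501, 1681 and 1900.0 in Rreb1+/+ replicates 2 to 4 and 1771 and 1956 in replicates 5 and 6 (-0.20 ± 0.21 (SE)). In Rreb1-/- embryos it was at 4547, 3151 and 2989 against 1934 and 2983, lower without overlap, with a difference of -0.54. The receptors Rara (0.27), Rarg (0.61) and Rxrg (-0.69) and the synthetic enzyme Rdh10 (0.14) were within 2-fold.

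Of 18 primitive blood genes that passed the filter 10 were counted as higher and 0 as lower, with a median of 1.33, which was 0.69 within Rreb1+/+ and 2.04 within Rreb1-/- embryos. The embryonic beta-like globin Hbb-bh1 was at 817, 672 and 413 in Rreb1+/+ replicates 2 to 4 and 9927 and 6396 in replicates 5 and 6. The mutants had 47.7, 26.0 and 35.0 and 2004 and 1730.5, so mutant replicates 5 and 6 lay above wild-type replicates 2 to 4 and below wild-type replicates 5 and 6. Its difference was 4.70 ± 0.45 (SE).

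Hba-x, the embryonic alpha-like globin, was near 0 in all of replicates 2 to 4. It was at 0, 3.01 and 2.86 in Rreb1+/+ replicates 2 to 4 and 1146 and 584 in replicates 5 and 6. In Rreb1-/- embryos it had no read in replicates 2 to 4 and was at 31.6 and 18.8 in replicates 5 and 6, at least 23.9-fold higher when 3 reads over the group of 3 embryos are taken as the floor. The fitted difference of 6.51 ± 0.83 (SE) depends on the pseudocount for such a gene.

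Klf1, the transcription factor that switches on globin and other red cell genes, was at 52.8, 36.1 and 30.6 against 160.4 and 189 in Rreb1+/+ and 8.48, 6.23 and 4.25 against 125 and 159.6 in Rreb1-/- embryos (3.23 ± 0.46 (SE)). Nfe2 (2.51), the platelet and progenitor integrin Itga2b (2.34), the haem enzyme Alas2 (2.02), Epor (1.34), Lmo2 (1.32) and Tal1 (1.06) were also higher. Gata1, the factor that acts on many of these genes, was not counted. It was at 714, 595 and 598 in Rreb1+/+ replicates 2 to 4 and 953 and 789 in replicates 5 and 6, and at 388, 315 and 376 against 751 and 717 in Rreb1-/- embryos (0.74 ± 0.14 (SE)), with no overlap within a genotype. Runx1 (0.03), Myb (-0.13) and Gfi1 (-0.49), which mark later or definitive blood, were within 2-fold. The globin Hbb-y (1.66) and Gfi1b (1.12) were not counted either, because they overlapped in Rreb1+/+ embryos, though not in Rreb1-/- embryos.

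GATA factors bind a short motif that red cell promoters often hold, so the 250 bases before the start site were searched in RefSeq promoters (GRCm38.p6) for AGATAA, for the same letters starting with T, and for both with G as the last letter, on both strands. Of the 10 counted blood genes 6 were in that set, and 5 of the 6 held a match (83.3%), against 26.5% of all 32851 promoters. Tal1 has more than 1 promoter in the set and was counted once, and Itga2b had no match. The 83.3% is per gene and the 26.5% per promoter. Blood genes that were not counted were not looked at as a group. Nothing about the difference between the sets is therefore read from these shares. The stretches around the matches of Hba-x and Klf1 are shown because these genes were near 0 or low in replicates 2 to 4. Both are on the plus strand, Hba-x at chr11:32276350-32276537 and Klf1 at chr8:84901862-84901947, upstream of the start sites in RefSeq. The GENCODE annotation has both genes start farther upstream, at 32276400 for Hba-x and 84901928 for Klf1, so by it both stretches run into the gene and the second Hba-x match lies inside it. Capitals mark the motif, which reads as CTATCT or TTATCA where it lies on the minus strand.
Hba-x: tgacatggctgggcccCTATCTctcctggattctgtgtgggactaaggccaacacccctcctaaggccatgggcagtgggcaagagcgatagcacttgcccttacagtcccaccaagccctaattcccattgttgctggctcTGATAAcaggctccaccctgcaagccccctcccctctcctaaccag
Klf1: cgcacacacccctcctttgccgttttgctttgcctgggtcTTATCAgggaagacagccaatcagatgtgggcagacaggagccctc
The last match lies 102 bases before the RefSeq start site of Hba-x and 74 before that of Klf1. A match describes the sequence and was not tested as a binding site.

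Endothelial genes had the highest share of counted members after the Hox genes, close to that of cardiac genes (11 of 18). Nothing is read from this order, because the sets were formed from these values. Icam2 and Cldn5 had means below 15 in replicates 2 to 4 of both genotypes and passed the filter only through replicates 5 and 6. Of 19 that passed the filter 12 were counted as higher and 0 as lower, with a median of 1.76 (1.17 over genes with a mean of at least 50). Tie1, a receptor of vessel cells, was at 49.9, 64.3 and 64.0 in Rreb1+/+ replicates 2 to 4 and 369 and 260.0 in replicates 5 and 6, and at 13.8, 33.3 and 28.7 against 259 and 226 in Rreb1-/- embryos (2.84 ± 0.31 (SE)). Sox18, a transcription factor of early vessels, was at 20.1, 16.1 and 16.2 against 124 and 129 and at 2.12, 8.31 and 0 against 106 and 105, in the same order (3.95 ± 0.71 (SE)). The tight junction protein Cldn5 (2.73 ± 0.62 (SE)), the adhesion molecule Icam2 (2.66 ± 0.32 (SE)), Erg (2.49), the vascular cadherin Cdh5 (2.23), Tek (1.97) and Pecam1 (1.76) were higher in both genotypes.

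Kdr and Etv2, which act before vessel cells differentiate, were not counted. Neither were Sox7 (0.05), Flt1 (0.13), Ramp2 (0.52), Eng (0.53) and Egfl7 (0.63). Kdr (Flk1), the VEGF receptor of mesodermal progenitors, was at 2036, 2084 and 1802 in Rreb1+/+ replicates 2 to 4 and 3952 and 3304 in replicates 5 and 6. In Rreb1-/- embryos the ranges overlapped, with 2807, 2835 and 2379 against 3454 and 2707, and the difference was 0.54 ± 0.16 (SE). Etv2, which specifies blood and vessel progenitors, was at 210.1, 206 and 232 against 276 and 309 in Rreb1+/+ and 106, 176 and 105 against 306 and 328 in Rreb1-/- embryos (0.88 ± 0.23 (SE)). It was apart in both genotypes but under 2-fold overall.

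All 18 cardiac genes that passed the filter had positive differences. Of these 11 were counted as higher and 0 as lower, with a median of 1.45. Tnnt2, cardiac troponin T, was at 161, 119 and 79.2 in Rreb1+/+ replicates 2 to 4 and 562 and 417 in replicates 5 and 6, and at 41.3, 43.6 and 31.9 against 632 and 656 in Rreb1-/- embryos (3.04 ± 0.43 (SE)). Nkx2-5, the homeobox factor of the cardiac crescent, was at 2.88, 15.1 and 10.5 against 32.7 and 75.4 and at 3.18, 7.27 and 3.19 against 29.7 and 60.5 (2.78 ± 0.51 (SE)). The 4 embryos of replicates 5 and 6 lay above the other 6 for both genes.

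Acta2, smooth muscle actin that early heart muscle also uses, had a difference of 3.54 ± 0.64 (SE), which was 1.93 within Rreb1+/+ and 5.14 within Rreb1-/- embryos. Tbx5 (3.04 ± 0.49 (SE)), Tnni1 (2.34), Myl4 (1.94), Myocd (1.94), Mef2c (1.83) and titin, Ttn (1.57), were counted too. Myl7, an atrial myosin light chain and early marker of cardiac progenitors, was among the 7 not counted, at 305, 464 and 671 in Rreb1+/+ replicates 2 to 4 and 421 and 487 in replicates 5 and 6 (0.04 ± 0.23 (SE)). Its Rreb1-/- values were 353, 407 and 526 and 426 and 475, and the groups overlapped in both genotypes. The others were Myl3 (0.47), Smarcd3 (0.72), Ryr2 (0.72), Hcn4 (0.82), Isl1 (0.87) and Tnnc1 (0.98).

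Of 24 genes of extraembryonic and lateral mesoderm, 6 were counted as higher and 0 as lower, with a median of 0.52. They were the matrix genes Postn (3.95 ± 0.62 (SE)), the collagens Col3a1 (3.33 ± 0.54 (SE)) and Col1a2 (1.5) and the transcription factors Prrx2 (2.93 ± 0.32 (SE)), Hand2 (1.59) and Hoxb6 (2.21 ± 0.43 (SE)). Genes known to be strong in the first extraembryonic mesoderm were within 2-fold, among them Hand1 (0.65 ± 0.20 (SE)), Bmp4 (0.01), Tbx3 (0.03), Msx1 (0.12) and Msx2 (-0.12). Allantois genes gave 5 of 11 counted as higher and 0 as lower, with a median of 1.28. Tbx4, the T-box factor of the allantois, was at 99.8, 72.3 and 141 against 769 and 555 in Rreb1+/+ and 29.7, 37.4 and 6.37 against 871 and 553 in Rreb1-/- embryos (3.88 ± 0.67 (SE)). Vcam1, which the outer allantois uses to meet the chorion, had a difference of 2.76 ± 0.57 (SE), and the others were Hoxa10, Hoxa11 and Hoxa13.

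Hox genes had the largest median difference of the 30 lists, and nothing is read from this rank. Of 35 genes listed 30 passed the filter, 25 were counted as higher and 0 as lower, and the median was 2.34, with 1.65 within Rreb1+/+ and 3.13 within Rreb1-/- embryos. Hoxa5 was at 15.4, 7.03 and 5.73 in Rreb1+/+ replicates 2 to 4 and 84.5 and 87.6 in replicates 5 and 6. It had no read in Rreb1-/- replicates 2 to 4 and was at 79.9 and 57.4 in replicates 5 and 6, at least 65.2-fold higher with the same floor of 3 reads over the group. Hoxb8 was at 69.1, 53.2 and 41.1 against 346 and 257 in Rreb1+/+ and 6.36, 7.27 and 3.19 against 285 and 196 in Rreb1-/- embryos (3.85 ± 0.58 (SE)). Hoxc8 (3.95 ± 0.79 (SE)) and Hoxa9 (3.69 ± 0.49 (SE)) followed the same order, with mutants lowest in replicates 2 to 4.

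The size of the difference changed along the clusters. Paralogues 1 to 3, at the 3' end and first to come on, had 5 of 8 genes counted and a median of 1.71. Paralogues 4 to 7 had 11 of 11 counted and a median of 2.95. Paralogues 8 to 13 had 9 of 11 counted and a median of 2.07. In replicates 2 to 4 of both genotypes, Hoxd3, Hoxa4, Hoxa5, Hoxc4, Hoxc5, Hoxc6, Hoxd4, Hoxa9 and Hoxd10 had means below 15. They passed the filter only through replicates 5 and 6, so nothing is read from the order of these counts and medians. Hoxb1, the earliest gene of the Hoxb cluster, was at 1245, 1164 and 1023 in Rreb1+/+ replicates 2 to 4 and 1132 and 1173 in replicates 5 and 6, a difference of 0.02. In Rreb1-/- embryos it was at 299, 658 and 337 against 1138 and 1425, a difference of 1.65. In the Hoxb cluster the difference within Rreb1+/+ embryos was 0.34 for Hoxb2, 1.01 for Hoxb3, 1.43 for Hoxb4 and 2.47 for Hoxb9. Hoxd13, at the far 5' end, was not counted (-0.09).

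**Figure D4:**
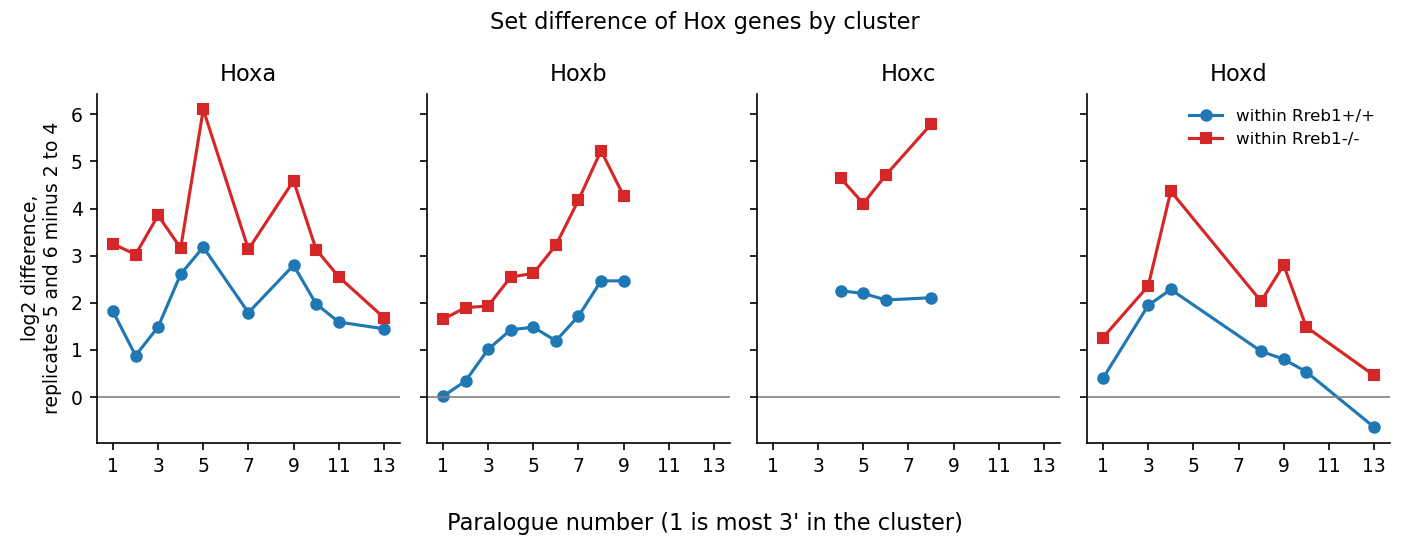
Log2 difference (replicates 5 and 6 minus replicates 2 to 4, y axis) of the 30 Hox genes that passed the filter, by paralogue number (x axis) in each cluster. Blue circles are differences within Rreb1+/+ and red squares within Rreb1-/- embryos, and the grey line marks 0. The red points lie above the blue ones for all 30 genes, and the blue Hoxb points go from 0.02 for Hoxb1 to 2.47 for Hoxb9.

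Hoxaas3, annotated as an antisense RNA of the Hoxa cluster, was among the 10 genes with the largest differences (6.23 ± 0.60 (SE)), at 13.4, 5.02 and 3.82 against 282 and 206 in Rreb1+/+ embryos. The kit kept strand, but whether counting used it is not given, so reads of Hoxaas3 and of the overlapping Hoxa genes could be mixed. Gm14226, a gene with no described function here, had the largest difference of all (7.63 ± 0.57 (SE)), at 14.4, 3.01 and 2.86 in Rreb1+/+ replicates 2 to 4 and 1145 and 523 in replicates 5 and 6. The mutant values were 1.06, 0 and 1.06 and 716 and 359.9. Arg1, the arginase of the urea cycle, was at 73.9, 25.1 and 29.6 against 835 and 931 in Rreb1+/+ and 12.7, 16.6 and 15.9 against 1019 and 1064 in Rreb1-/- embryos (5.26 ± 0.41 (SE)). All 3 genes were apart in both genotypes.

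Of 20 neurectoderm genes that passed the filter 9 were counted as higher and 0 as lower, with a median of 0.87, and 4 had negative differences. Olig3, a transcription factor of dorsal hindbrain and spinal cord, was at 2.88, 5.02 and 4.77 in Rreb1+/+ replicates 2 to 4 and 105 and 97.0 in replicates 5 and 6, and at 0, 1.04 and 0 against 97.6 and 57.4 in Rreb1-/- embryos (5.11 ± 0.41 (SE)). Sox1, the earliest marker specific to the neural plate, was at 48.9, 56.2 and 32.5 against 188 and 197 and at 3.18, 6.23 and 10.6 against 162 and 91.8 (3.10 ± 0.50 (SE)). For both genes the mutants of replicates 2 to 4 had the lowest values.

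Hes3, a Notch pathway repressor of neural progenitors, had a difference of 4.32 ± 0.89 (SE), Pax2, of the midbrain and hindbrain border, 2.30 ± 0.32 (SE), Gbx2 1.41, Hesx1, of the anterior neural plate, 1.30 ± 0.22 (SE), Crabp2 1.25, Nkx6-1 1.04 and Pax6 1.01. The forebrain gene Six3 was apart by less, at 52.8, 122 and 140.4 against 201 and 179.9 in Rreb1+/+ embryos, and overlapped in Rreb1-/- embryos (0.74 ± 0.34 (SE)). En1 (-0.91), Sox21 (-0.73), En2 (-0.46) and Fgf15 (-0.16) had negative differences and were not counted. Of 14 genes of surface ectoderm and amnion, Postn alone was counted, as higher. The median was 0.27, with 0.26 within Rreb1+/+ and -0.11 within Rreb1-/- embryos.

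Node and notochord genes had a median of -0.29, with 2 of 19 counted as higher and 2 as lower. That median was -0.45 within Rreb1+/+ and 0.03 within Rreb1-/- embryos. Shh, the ligand made by notochord and floor plate, was at 106, 65.3 and 55.4 in Rreb1+/+ replicates 2 to 4 and 179 and 179 in replicates 5 and 6, and at 6.36, 3.12 and 35.0 against 197 and 354 in Rreb1-/- embryos (2.99 ± 0.88 (SE)). Foxd4 was higher (1.24 ± 0.33 (SE)), and the BMP inhibitor Chrd was lower (-1.39 ± 0.32 (SE)), as was T. Foxj1, the factor for motile cilia of the node, was at 614, 766 and 961 against 154 and 219 in Rreb1+/+ embryos. In Rreb1-/- embryos it was at 411, 443 and 682 against 174 and 420.4, where replicate 6 lay inside the range of replicates 2 to 4, and it was not counted (-1.47 ± 0.37 (SE)). Noto was not counted either (-0.37 ± 0.32 (SE)).

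Among 16 genes of definitive endoderm and gut, 3 were counted as higher and 2 as lower, with a median of -0.13. Osr1 (3.00 ± 0.51 (SE)), which intermediate mesoderm also expresses, the Wnt inhibitor Sfrp5 (2.84 ± 0.37 (SE)), of foregut, and Nkx2-3 (2.16 ± 0.41 (SE)), of gut mesoderm and pharynx, were higher. Trh (-1.07) and Cer1 were lower. Of 13 anterior visceral endoderm genes 2 were counted as higher (Sfrp5 and Hesx1) and 2 as lower (Cer1 and Lefty1), with a median of -0.43. Each of these 4 has other sites of expression in the embryo. Sox17 (-0.62) and Foxa2 (-0.29) were within 2-fold.

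Outside the anterior visceral endoderm list, no listed visceral endoderm gene was counted, and nothing is read from this given the background percentages. Of 23 genes for plasma proteins 0 were counted in either direction and the median was 0.28 (0.07 within Rreb1+/+ and 0.47 within Rreb1-/- embryos), and of 24 genes of lineage and uptake 0 were counted and the median was 0.04. Afp, the serum protein of visceral endoderm, was at 10885, 10611 and 15296 in Rreb1+/+ replicates 2 to 4 and 11825 and 12399.7 in replicates 5 and 6, with overlap. Mutant values were 4758, 3425 and 2831 against 7237 and 7989, with no overlap and a difference of 1.08. Ttr overlapped in Rreb1+/+ embryos as well but not in Rreb1-/- embryos, where it was at 10809, 10668 and 9309.5 against 13805 and 18881 (0.40 ± 0.16 (SE)). Apoa4 was at 2795, 4863 and 7661 against 4309 and 6383 in Rreb1+/+ embryos, also with overlap (0.31 ± 0.34 (SE)).

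Of 22 genes of extraembryonic ectoderm and chorion, 3 were counted as lower and 0 as higher, with a median of -0.08. Elf5, a trophoblast stem cell factor, was at 3581, 2093 and 2232 in Rreb1+/+ replicates 2 to 4 and 1245 and 1775 in replicates 5 and 6, and at 4432, 4288 and 3221 against 1130.0 and 1068 in Rreb1-/- embryos (-1.31 ± 0.28 (SE)). Esrrb (-1.52 ± 0.38 (SE)), which acts beside it, and Eomes, which trophoblast and streak share, were the others. Cdx2 (0.54), Tfap2c (-0.04) and Bmp4 (0.01) were within 2-fold. Primordial germ cell genes had 0 of 13 counted as higher and 1 as lower, Nanog, with a median of -0.03.

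Genes of the ectoplacental cone and giant cells varied between embryos within each set. Of 20 that passed the filter 0 were counted, although all 20 had positive differences and the median was 0.90 (0.57 without Rreb1-/- replicate 6 and 0.54 with a mean of at least 50). The mean of their log2 values, relative to all 10 embryos, was 2.12 and 1.01 in Rreb1+/+ replicates 5 and 6 and -1.44 and 2.45 in Rreb1-/- replicates 5 and 6. In replicates 2 to 4 it was 0.87, -1.37 and -1.10 in Rreb1+/+ and 0.16, -1.56 and -1.13 in Rreb1-/- embryos, so 3 of the 4 embryos of replicates 5 and 6 lay above all of replicates 2 to 4. Prl3d1, a placental lactogen of giant cells, was at 149, 0 and 4.77 in Rreb1+/+ replicates 2 to 4 and 666 and 27.3 in replicates 5 and 6. It was at 27.6, 2.08 and 0 in Rreb1-/- replicates 2 to 4 and 0 and 766 in replicates 5 and 6. Prl3d1 was thus highest in Rreb1+/+ replicates 2 and 5 and Rreb1-/- replicate 6. Other genes of the list were higher in Rreb1+/+ replicate 6 than in replicate 2, among them Psg29 (132 and 5.76) and Serpinb9e (747 and 319). Tpbpa, of the cone, was at 3.84, 0 and 0 and 0 and 64.1 in Rreb1+/+ embryos and at most 1.06 in Rreb1-/- embryos, and Ascl2 overlapped (0.47 ± 0.39 (SE)). Adm, which giant cells also make, was high in the same 3 embryos, at 887, 2730.2 and 1800.4, against 8.31 to 211 in the other 7. The summed level of all 26 genes of the list in the table was 93572 to 112696 in replicates 5 and 6 and 80932 to 113764 in replicates 2 to 4. Most of each sum came from Peg10 (45969 to 73594 over all embryos) and Car4 (15716 to 26580). The sums therefore say little about the Prl genes and others with low values.

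Markers of maternal tissue were present at unequal levels. Of 30 listed genes 22 were in the table and 11 passed the filter, with 5 counted as higher, 0 as lower and a median of 1.60. That median was 0.08 with a mean of at least 50, 0.94 without Rreb1-/- replicate 6 and 0.49 without the 3 embryos in which Prl3d1 was highest. The summed level was 1345 to 2370 in replicates 5 and 6 and 852 to 2548 in replicates 2 to 4. Igfbp1, which decidua makes, was not counted, at 53.7 to 1614 in replicates 2 to 4 and 90.1 to 682 in replicates 5 and 6, and was highest in Rreb1-/- replicate 2, which also had the highest sum. Coro1a, of leukocytes, was at 83.5 to 407 over all embryos and was not counted. Among the other defining markers, the leukocyte gene Ptprc was at 0 to 2.86 in replicates 2 to 4 and at 40.3, 0.942, 0 and 28.2 in replicates 5 and 6. Dcn, of stroma, was at 3.01 to 11.7 and 11.5 to 28.8, and Prl8a2, of decidua, at 0 to 30.7 and 0 to 13.6. The adult globins Hbb-bs (3.93 ± 1.06 (SE)) and Hba-a1 (4.63 ± 0.59 (SE)), which the mother's blood holds and late embryos also make, were higher, at 55.7 and 38.6 for Hba-a1 in Rreb1+/+ replicates 5 and 6 and 0 to 3.84 in all of replicates 2 to 4. Near-identical copies of both make these counts uncertain. The matrix gene Lum (4.47 ± 0.45 (SE)), Hoxa11 and Cryab (1.60) were the other counted members. The part of maternal cells in the differences was not tested.

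Parietal endoderm genes, from the layer removed in dissection, had 1 of 19 counted as higher (Stra6), 0 as lower and a median of 0.08. Their summed level was 94648 to 185062 in replicates 5 and 6 and 87921 to 159530 in replicates 2 to 4. Leaving out Rreb1+/+ replicates 2 and 5 and Rreb1-/- replicate 6, the embryos in which Prl3d1 was highest, left 538 genes counted as higher and 270 as lower, a setting chosen after seeing the data. That setting leaves 1 embryo of each genotype in replicates 5 and 6, so the rule on overlap is easier to meet. Nothing about the part of the embryos left out is read from its counts. Leaving out Rreb1+/+ replicate 6 as well would leave no wild-type embryo in replicates 5 and 6.

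Among lists of cell state, all 24 proliferation genes lay between -0.22 and 0.21, with 0 counted. Glycolysis and hypoxia genes had 0 of 26 counted and a median of -0.01, ribosomal protein genes 0 of 85 and -0.03, mitochondrially encoded genes 0 of 9 and -0.09, and replication-dependent histones 0 of 11 and -0.12. The p53 targets had 1 of 18 counted as lower, Pmaip1 (-1.42 ± 0.32 (SE)), and a median of 0.02.

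Of 19 immediate-early and heat-shock genes 3 were counted as higher and 0 as lower (median 0.32). Immediate-early genes switch on within minutes of a signal. Fos was at 155, 107 and 107 in Rreb1+/+ replicates 2 to 4 and 1049.6 and 397 in replicates 5 and 6, and at 90.1, 106 and 207 against 458 and 869.9 in Rreb1-/- embryos (2.36 ± 0.38 (SE)). Fosb (3.56 ± 0.74 (SE)) and Egr1 (1.35 ± 0.28 (SE)) went the same way, whereas Jun (0.62), Junb (0.47), Atf3 (0.82) and the heat-shock gene Hsph1 (0.06) were not counted. Interferon response genes had 2 of 15 counted as lower, Usp18 (-1.05 ± 0.32 (SE)) and Psmb8 (-1.02 ± 0.28 (SE)), 0 as higher and a median of -0.61.

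The remaining genes among the 10 largest negative differences have no shared list. Tgm3, a transglutaminase, was at 33.6, 40.2 and 46.8 against 1.92 and 3.77 in Rreb1+/+ embryos (-3.08 ± 0.33 (SE)), Abcc12, a transporter, had a difference of -3.04 ± 0.18 (SE) and Ccno, a cyclin-like gene of multiciliated cells, -2.5 ± 0.34 (SE). Best1 was at 24, 20.1 and 0.955 in Rreb1+/+ replicates 2 to 4 and had no read in Rreb1+/+ replicates 5 and 6, at least 10.5-fold lower with the floor of 3 reads over the pair. Wild-type replicate 4 stood apart from the other embryos of its set. On the sex chromosomes, 10 of the 586 X-linked genes compared were counted as higher and 11 as lower, and 0 of 7 Y-linked genes were counted.

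The set difference had the same sign in both genotypes by the rule, and its size in each can be given side by side. Among the 471 genes counted as higher, the median difference was 1.32 within Rreb1+/+ and 1.95 within Rreb1-/- embryos. For the 170 counted as lower, the medians were -1.20 and -1.49. In 414 of the 471 all 4 embryos of replicates 5 and 6 lay above all 6 of replicates 2 to 4, and in 126 of the 170 they lay below. The rule already required this order within each genotype, so nothing is read from these counts. Inside replicates 2 to 4, Rreb1+/+ embryos lay entirely nearer the level of replicates 5 and 6 than Rreb1-/- embryos for 235 of the 471 genes (49.9%), and Rreb1-/- embryos were nearer for 18. For the 170 genes these counts were 57 (33.5%) and 5. Over all genes compared, wild-type lay entirely above mutant in replicates 2 to 4 for 1715 and below for 1712.

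The median difference between mutant and wild-type over the 471 genes was -0.72 in replicates 2 to 4 and -0.01 in replicates 5 and 6. Over the 170 it was 0.42 and 0.07. Inside replicates 5 and 6, both wild-type embryos lay above both mutants for 111 of the 471 genes, among them Hbb-bh1 and Hba-x, and both mutants lay above both wild-type embryos for 123, among them Tnnt2. Of the 170 genes, both wild-type embryos lay below both mutants for 45 and above for 39. Over all 15603 genes compared, both wild-type embryos lay above both mutants for 3524 and below for 3288. Given this background, nothing is read from the counts inside replicates 5 and 6, where sex also went with genotype. The difference between the medians given above was not tested, and nothing is read from it, since the genes were chosen by the set difference.

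**Figure D5:**
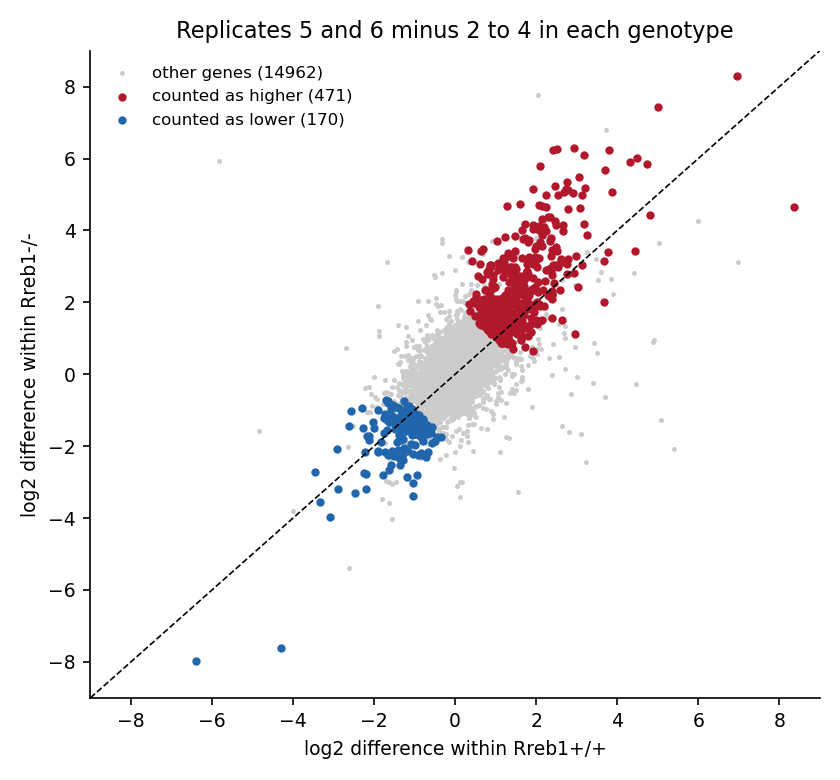
Log2 difference (replicates 5 and 6 minus replicates 2 to 4) within Rreb1+/+ (x axis) and within Rreb1-/- embryos (y axis) for the 15603 genes compared. Red points are the 471 genes counted as higher, blue points the 170 counted as lower, grey points the others, and the dashed line marks equal differences. Most red points lie above the line, with medians of 1.32 on the x axis and 1.95 on the y axis.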

How the data were processed

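RNA-sequencing was analysed for 10 single E7.5 embryos, 5 Rreb1+/+ and 5 Rreb1-/-, each with its own library. Reads were aligned by the authors with STAR, post-processed with Picard, assigned to genes with HTSeq and scaled with DESeq. The deposited signal of a gene is thus its read count over the size factor of that embryo. Genome build, gene models, strand setting and tool versions were not given in the sources used here. Every value was a whole multiple of 1 step per embryo, so the reads were recovered for depth (31467767 to 35786876 counted reads per embryo) and for alternatives in edgeR 4.0.16 (R 4.3.3). Of the gene symbols 24 had become dates and were restored by Ensembl identifier. Chromosomes came from GENCODE M21 (GRCm38) by identifier for 20884 of 20974 genes.

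Groups and replicate numbers followed the sample titles, which run from 2 to 6. Values were taken to log2(value + 1) and fitted by least squares on genotype and set in Python 3.11.15 with numpy 2.4.6, over all 10 embryos. The standard error is that of the set term. No p-value was computed for any comparison of the sets, because the sets were formed from these values. Genes named in the text are the 10 largest differences in each direction, up to 4 counted members per list, 35 stage genes and Rreb1, Xist and the Y-linked genes. Values of some list members are not reported here. Other list members are given with their difference, and the Prl, Adm, Ptprc, Dcn and Prl8a2 values were chosen for the check of dissection. The members, the 30 lists and the stage genes were chosen with earlier results of these data known. Embryos of 1 group differed by more than counting noise in every pair (chi-square per degree of freedom of 16.7 to 50.5). The fit was tested on simulated data. Alternatives covered the pseudocount, filter, normalization, fold, overlap, genotype, sex chromosomes and single embryos. Depth limits the lowest genes, and floors cover counting error only.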

Additional observations from a re-analysis of the deposited data

Results flagged for a closer look

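In each set of 4 or 6 embryos, the embryo farthest from the others was compared with the range of its set for 81 measures (the 30 list scores and 51 genes), which gave 162 sets, and chance alone would flag about 1 set in 20. The number given is the gap to the nearest embryo divided by the range, and 11 sets were past the critical value of Dixon's test. In replicates 5 and 6, Rreb1-/- replicate 5 was lowest in the visceral endoderm plasma protein score (0.866). Rreb1-/- replicate 6 stood apart in the same set for Olig3, where it was lowest (0.873), and for Mesp2 (0.878), Noto (0.835) and Hoxb1 (0.847), where it was highest. Rreb1+/+ replicate 5 was lowest for Lefty1 (0.920), where all 4 embryos had about 1 read or none, and Rreb1+/+ replicate 6 alone had reads of Tpbpa (1.0).

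In replicates 2 to 4, Rreb1+/+ replicate 4 was lowest for Best1 (0.670), Rreb1+/+ replicate 3 for Mixl1 (0.626), Rreb1-/- replicate 3 for Noto (0.660) and Rreb1-/- replicate 4 for Dppa3 (0.629). No gene of this group was apart in opposite directions in the 2 genotypes.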

How the results depend on the processing

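No paired analysis was possible because the replicate number itself forms the sets and no test was made. The count of genes higher in replicates 5 and 6 (471) was 300 with a mean of at least 50, 769 with a 1.5-fold and 163 with a 4-fold difference. The count of genes lower (170) was 269 with no filter, 108 with a mean of at least 50, 366 with 1.5-fold, 21 with 4-fold, 322 in Rreb1-/- embryos alone and, in a setting chosen after seeing the data, 270 without the 3 embryos in which the giant cell gene Prl3d1 was highest. The other settings, with other pseudocounts, TMM factors, quantile normalization, edgeR coefficients, arithmetic means, no requirement on overlap, Rreb1+/+ embryos alone or no X and Y genes, moved neither count by more than 1.5 times. Leaving out 1 embryo gave 466 to 507 genes higher and 168 to 218 lower. Settings that leave 1 embryo of a genotype in replicates 5 and 6 make the rule on overlap easier to meet. None of the 96 named genes that was counted changed sign in 1824 comparisons, and 123 of the comparisons moved a gene's value by more than its spread. Of 660 comparisons of list medians 9 moved by more than the spread, among them the maternal list, at 0.08 with a mean of at least 50 and 0.49 without those 3 embryos, and the endothelial list, at 1.17 with a mean of at least 50. Medians within 0.3 of 0 changed sign under some settings, among them those of gut (0.45 with no filter), germ cell, parietal endoderm and p53 genes.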

Other observations

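Genes outside the lists, named after their values were seen, included parts of the tissues described above. In heart muscle, Myh7, a heavy chain of myosin, was at 53.2 to 59.2 in Rreb1+/+ replicates 2 to 4 and at 188 and 172 in replicates 5 and 6, and at 8.50 to 20.8 against 203 and 191 in Rreb1-/- embryos. Popdc2, a membrane protein of heart muscle, had a log2 difference of 2.99 ± 0.44 (SE). In vessels, the Notch ligand Dll4 of arterial cells was at 14.3 to 34.5 against 129 and 85.7 in Rreb1+/+ and 2.08 to 4.24 against 79.0 and 73.0 in Rreb1-/- embryos. In red cells, Ank1 (2.91 ± 0.40) and Epb42 (2.64 ± 0.27), both of the membrane skeleton, were higher in replicates 5 and 6. Tbx1 and Pax9, which the pharyngeal region uses, had differences of 2.74 ± 0.43 and 3.07 ± 0.33.

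Among the lower genes outside the lists, Nr0b1 (Dax1), an orphan receptor of pluripotent cells, was at 261 to 372 in Rreb1+/+ replicates 2 to 4 and at 72.0 and 119 in replicates 5 and 6. In Rreb1-/- embryos it was at 286 to 888 against 133 and 212. Bcl11a, a zinc finger factor, had a difference of -2.02 ± 0.19 and Dcx, a microtubule protein known from young neurons, -1.83 ± 0.24. These values are descriptions, like those of the other genes.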
